A study of Homo sapiens with 8 samples.

Results

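UNC5B, a receptor for netrins, was 41.8-fold higher in HT29 cells given ICG-001, 9.72-fold higher with CWP232228 and 32.1-fold higher with YB-0158 than in cells given the DMSO vehicle. NEO1 and NTN4, the most abundant netrin receptor and netrin ligand of the set, were higher by smaller amounts, though the NEO1 difference with CWP232228 (log2 fold change 0.35) was 0.02 once GC content and length were corrected for. The genes described are UNC5A, UNC5B, UNC5C, DCC, NEO1, NTN1 and NTN4, taken by gene symbol and selected on the UNC5B log2 fold changes against DMSO, with the related genes added by name. They are 7 of the 58193 annotated genes matched to the deposited transcripts. The authors' deposited tables hold 5 of the 7, with no row for UNC5C or DCC. Of the 7, 4 (UNC5A, UNC5B, NEO1 and NTN4) passed the filter on low counts and NTN1, DCC and UNC5C did not.

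HT29 is an established human colorectal adenocarcinoma cell line, and all 8 libraries came from it. The groups, with 2 libraries each, were ICG-001 at 10 µM, CWP232228 at 1.5 µM, YB-0158 at 0.3 µM and the DMSO vehicle at 0.1%. Cells were treated for 48 h, except for replicate 2 of ICG-001 and replicate 2 of CWP232228, which the labels give as 49 h. Since doses and in part times differ, the compounds are set side by side and were not tested against each other, and all 3 share the same DMSO libraries. Whether the replicates were separate cultures is not stated in the labels, so the spread behind the p-values is that between the libraries at hand and may be technical. A single cell line limits the results to that line, and in bulk RNA fewer cells expressing a gene and less of its RNA per cell cannot be told apart.

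Netrins are secreted, laminin-like proteins that guide growing axons and also act in epithelia and vessels. DCC and its relative neogenin, the product of NEO1, are transmembrane receptors for netrins, and the UNC5 proteins are receptors that mediate repulsion alone or together with DCC. DCC and the UNC5 proteins are known as dependence receptors, which can promote cell death when no ligand is bound, and DCC and UNC5 genes have long been studied in the colon as genes with reduced expression in colorectal tumours.

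Levels per transcript length, in TPM, put the genes in the same broad order in the vehicle and in treated cells. NEO1 and NTN4 stood between 8.70 and 31.8 TPM in every library, UNC5B and UNC5A lay far lower, NTN1 did not exceed 0.0483 TPM, and UNC5C was not detected. The order of UNC5B and UNC5A differed between groups. The ratio of UNC5B to UNC5A TPM was 10.8 and 13.1 with ICG-001, 2.67 and 2.34 with CWP232228 and 8.75 and 11.5 with YB-0158, against 0.381 and 0.416 with DMSO, so that UNC5B was the lower of the pair in the vehicle only. The ratio of NEO1 to UNC5B TPM was 6.04 and 6.15 with ICG-001, 20.8 and 22.4 with CWP232228 and 8.62 and 7.87 with YB-0158, against 252 and 135 with DMSO. NEO1 was therefore the most abundant of the 5 receptor genes in all 8 libraries.

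**Figure D1:**
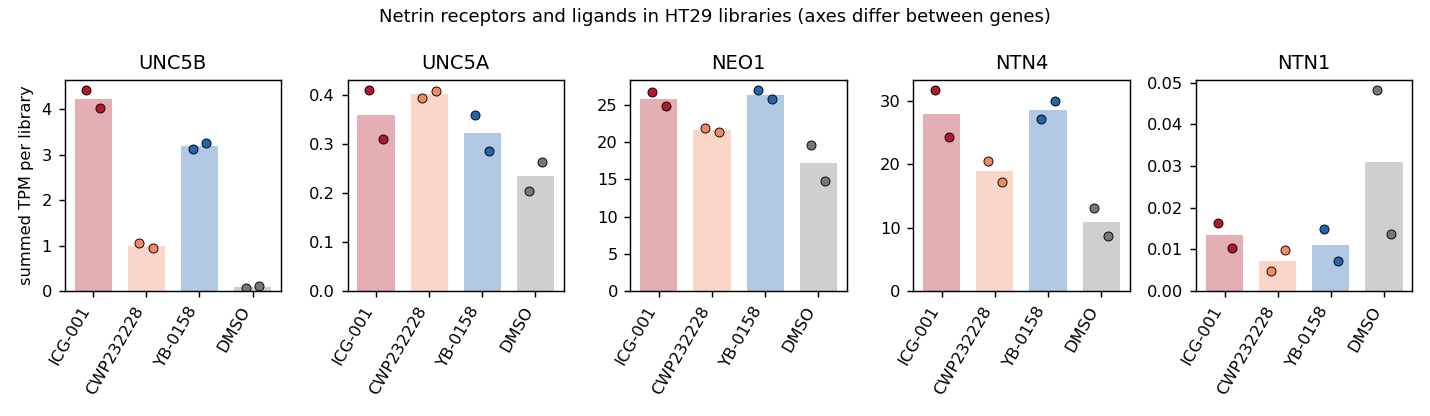
Summed TPM (vertical axes, linear, starting at 0 and differing between genes) of the 5 genes with reads in every library, for ICG-001, CWP232228, YB-0158 and DMSO; points are the 2 libraries of a group and bars their mean. UNC5B lies between 0.952 and 4.43 TPM with the compounds and at 0.0779 and 0.109 TPM with DMSO, while NTN1 lies under 0.05 TPM throughout.

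UNC5B (ENSG00000107731; GRCh38 chromosome 10, 71212570 to 71302864, plus strand) was represented by 1800 and 1320 estimated reads with ICG-001, 245 and 215 with CWP232228 and 1400 and 985 with YB-0158, against 18 and 26 with DMSO. Scaled to library size, as CPM, these were 33.0 and 31.2 with ICG-001, 7.97 and 7.01 with CWP232228 and 24.4 and 25.2 with YB-0158, against 0.626 and 0.919 with DMSO. The 4 groups did not overlap, and both libraries of ICG-001 were the highest, followed by YB-0158, CWP232228 and DMSO. The gene averaged 32.1 ± 1.29 CPM with ICG-001, 7.49 ± 0.681 CPM with CWP232228, 24.8 ± 0.571 CPM with YB-0158 and 0.772 ± 0.208 CPM with DMSO (SD, n = 2 each).

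The UNC5B log2 fold changes in the fit were 5.37 (SE 0.16) with ICG-001, 3.27 (SE 0.18) with CWP232228 and 5.0 (SE 0.16) with YB-0158. UNC5B was chosen for its rise in these comparisons, so these values are a description and carry no test. The DMSO side rests on 44 reads, and the 95% counting intervals of the fold were 31.0 to 57.6 for ICG-001, 7.12 to 13.6 for CWP232228 and 23.8 to 44.3 for YB-0158. These intervals cover counting error only. By size of log2 fold change UNC5B ranked 61st with ICG-001, 85th with CWP232228 and 66th with YB-0158 of 16449 genes. Even so its level stayed in the lower part of the tested genes. Its TPM lay at percentiles 37.8 and 36.3 of these genes with ICG-001, 20.7 and 19.4 with CWP232228 and 33.4 and 33.5 with YB-0158. With DMSO the percentiles were 2.95 and 4.94. The authors' deposited tables give log2 fold changes of 5.37 with ICG-001, 3.26 with CWP232228 and 4.97 with YB-0158.

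**Figure D2:**
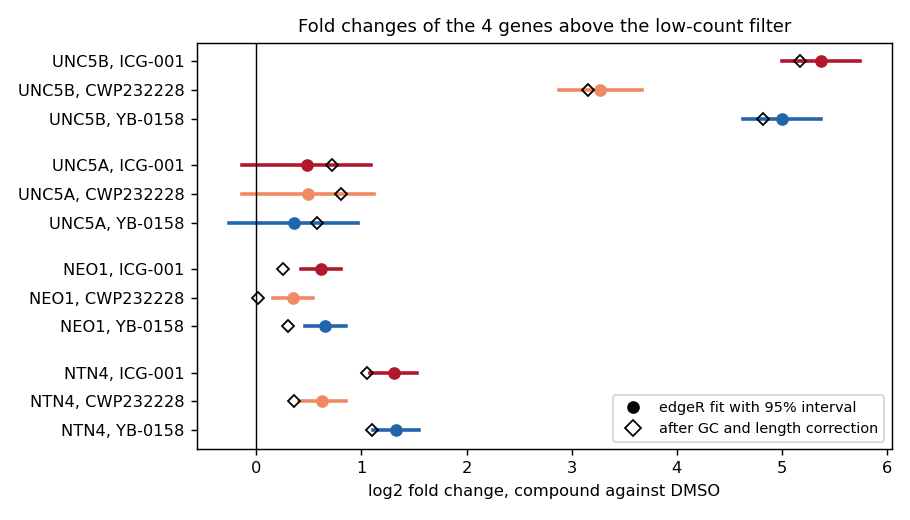
Log2 fold change against DMSO (horizontal axis) of UNC5B, UNC5A, NEO1 and NTN4 for each compound; filled points and lines are edgeR estimates with 95% intervals, and open diamonds are estimates corrected for GC content and length. UNC5B lies between 3.27 and 5.37, the UNC5A intervals include 0, and the NEO1 diamond for CWP232228 lies at 0.02.

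The annotation gives UNC5B a pair of protein-coding transcripts, between which the gene's reads can be divided. They differ by a small cassette exon, shown here, and by 357 bases at the 5′ end. UNC5B-201 has 17 exons and UNC5B-202 has 16. Exon 8 of UNC5B-201, of 33 bases, lies at chr10:71288958-71288990 on the plus strand of GRCh38 and is absent from UNC5B-202. Neogenin has an exon of the same length, exon 22 of 30 in NEO1-202, at chr15:73274692-73274724 on the plus strand, which NEO1-206 lacks. The length is a whole number of codons. In the transcript sequences the exon stands in capitals with 30 bases of the flanking exons in lower case.
UNC5B exon 8: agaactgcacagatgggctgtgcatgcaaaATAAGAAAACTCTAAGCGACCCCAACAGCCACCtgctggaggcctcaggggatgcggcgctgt
NEO1 exon 22: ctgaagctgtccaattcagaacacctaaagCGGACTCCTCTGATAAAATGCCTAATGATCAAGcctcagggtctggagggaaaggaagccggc

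Reads assigned to UNC5B divided almost evenly between the transcripts with and without exon 8 in most treated libraries. UNC5B-201 held 50.8% and 52.2% of the gene's reads with ICG-001, 48.5% and 50% with CWP232228 and 64.7% and 49.4% with YB-0158, so that 1 YB-0158 library stood above the other 5. With DMSO, all 18 reads of replicate 1 and 0 of the 26 reads of replicate 2 were assigned to UNC5B-201, and no share can be read from so few. UNC5B-201 also carries 357 more bases at its 5′ end, and Salmon divides reads that fit both transcripts by a model, so the shares do not come from reads over the exon alone. No test was made of them.

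The antisense gene UNC5B-AS1, which overlaps UNC5B on the minus strand, had 0 to 4 reads per library. The library kit does not mark strand, so reads of the overlap cannot be told apart. None of the tested genes around UNC5B rose. Of the 5 annotated genes reaching into 200 kb on either side, 3 were tested. SLC29A3, a nucleoside transporter 3′ of UNC5B (71319258 to 71381423), had 12.1 and 12.1 CPM with ICG-001, 11.3 and 11.9 with CWP232228 and 13.1 and 13.5 with YB-0158, against 15.6 and 17.3 with DMSO. It fell with each compound (log2 fold changes -0.44, -0.51 and -0.31, edgeR adjusted p = 0.006, 0.0053 and 0.031). The YB-0158 call for SLC29A3 was lost without DMSO replicate 2 (-0.24), without YB-0158 replicate 1 (-0.29) or 2 (-0.33) and under the GC and length correction, and none of its calls held with effective transcript lengths as an offset. CDH23, an atypical cadherin of the inner ear, did not pass the test (0.04, 0.06 and -0.20), nor did ENSG00000279406 (0.26, 0.25 and 0.49).

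By root mean square distance between centred log2 CPM over the 8 libraries, among 11334 genes, the profile most like that of UNC5B was that of SLC6A9, a glycine transporter. SLC6A9 lay at a distance of 0.27, had 49.1 and 45.9 CPM with ICG-001, 19.9 and 16.7 with CWP232228 and 46.2 and 45.0 with YB-0158, against 1.49 and 1.73 with DMSO. BEST1, a chloride channel, followed at 0.51, PRSS1 and PRSS2, trypsinogens, at 0.52 and 0.57, and CHAC1, an enzyme that degrades glutathione, at 0.59. CHAC1 had 88.5 and 79.9 CPM with ICG-001, 32.6 and 25.4 with CWP232228 and 77.9 and 73.3 with YB-0158, against 6.08 and 5.73 with DMSO. In all 5 genes the ICG-001 and YB-0158 libraries exceeded those of CWP232228, and the DMSO libraries were lowest. The genes were picked for nearness to UNC5B over these same libraries, so this shared order reflects the choice and is no separate result. PRSS1 and PRSS2 are near-identical copies, and the split of reads between them is uncertain. The distances describe 8 libraries in 4 groups and share their depth.

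**Figure D3:**
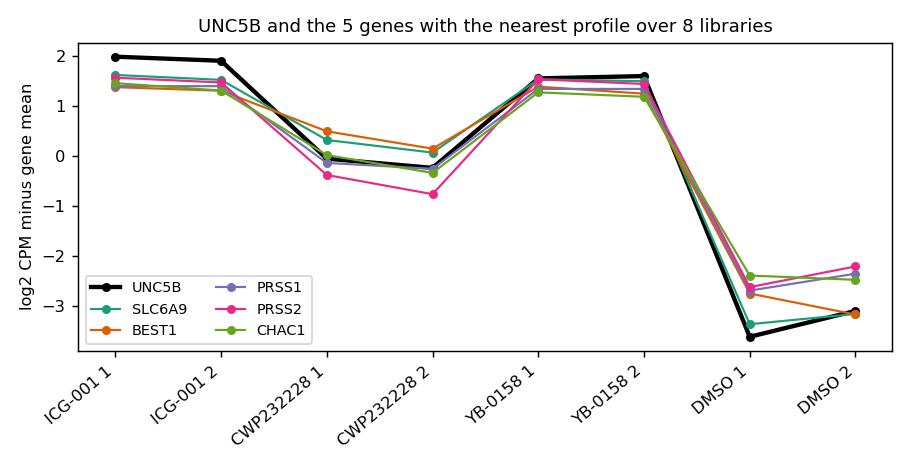
Log2 CPM minus the gene's mean (vertical axis) in each library (horizontal axis, compounds first) for UNC5B, in black, and the 5 genes with the nearest profile. All 6 lines are lowest in the DMSO libraries and lie between their extremes with CWP232228, an order that the choice by nearness brings with it.

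UNC5B is also known from endothelium and neurons. The endothelial markers CDH5, KDR and CLDN5 had at most 3 reads in any library. PECAM1, TEK and VWF exceeded 3 reads in some library, and 2 of the 6 endothelial markers passed the low-count filter. The summed level of the 6 was 0.376 to 0.775 TPM with ICG-001, 0.625 to 0.991 with CWP232228 and 0.24 to 0.767 with YB-0158, against 0.72 to 0.977 with DMSO. The neuronal markers RBFOX3, STMN2, ELAVL3, NEFL and NEFM likewise had at most 3 reads in any library. SYP, the sixth neuronal marker, passed the filter, and the 6 summed to 0.38 to 0.439 TPM with ICG-001, 0.345 to 0.409 with CWP232228 and 0.371 to 0.391 with YB-0158, against 0.386 to 0.482 with DMSO.

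The other UNC5 receptors were scarce. UNC5A (ENSG00000113763; chromosome 5, 176810477 to 176880898, plus strand) had 93 and 56 reads with ICG-001, 51 and 43 with CWP232228 and 89 and 48 with YB-0158, against 26 and 36 with DMSO. In TPM it stood at 0.41 and 0.309 with ICG-001, 0.394 and 0.407 with CWP232228 and 0.358 and 0.285 with YB-0158, against 0.204 and 0.263 with DMSO. In CPM the DMSO libraries lay below both libraries of ICG-001 and of CWP232228 and overlapped those of YB-0158. UNC5A did not pass the test with any compound: its log2 fold changes were 0.48 (95% interval -0.13 to 1.09, edgeR adjusted p = 0.17) with ICG-001, 0.49 (-0.13 to 1.12, adjusted p = 0.18) with CWP232228 and 0.36 (-0.26 to 0.97, adjusted p = 0.31) with YB-0158. Once corrected for GC content and length, UNC5A passed with ICG-001 (0.72, adjusted p = 0.021) and CWP232228 (0.81, adjusted p = 0.02) and not with YB-0158 (0.58, adjusted p = 0.054). Its transcripts have a GC content of 64.9%, against a median of 49.7% over the tested genes.

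UNC5C (chromosome 4, 95162504 to 95549206, minus strand) had 0 reads in all 8 libraries. A count of 0 allows up to 3 reads, which is 0.0513 to 0.103 CPM at the depths of these libraries. DCC (chromosome 18, 52340172 to 53535903, plus strand), the receptor after which the family's role in colorectal cancer was first studied, had 1 and 2 reads with ICG-001, 0 and 0 with CWP232228 and 1 and 0 with YB-0158, against 0 and 1 with DMSO. DCC and UNC5C were thus not detected above the limit of 3 reads in any library, and no difference could be measured at this depth. UNC5D, the remaining UNC5 receptor gene, had 1 read in 1 ICG-001 library and 0 in the others.

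NEO1 (ENSG00000067141; chromosome 15, 73051710 to 73305206, plus strand) encodes neogenin, which also binds repulsive guidance molecules. It had 122 and 124 CPM with ICG-001, 104 and 101 with CWP232228 and 128 and 124 with YB-0158, against 86.2 and 74.0 with DMSO. In TPM it averaged 25.8 ± 1.34 with ICG-001, 21.6 ± 0.415 with CWP232228, 26.4 ± 0.913 with YB-0158 and 17.2 ± 3.4 with DMSO (SD, n = 2 each). Every treated library lay above both DMSO libraries, and the values of ICG-001 and YB-0158 did not separate.

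NEO1 rose with ICG-001 by a log2 fold change of 0.62 (SE 0.08, edgeR adjusted p = 0.00062), with YB-0158 by 0.65 (SE 0.08, adjusted p = 0.00054) and with CWP232228 by 0.35 (SE 0.08, adjusted p = 0.012). The call for CWP232228 did not hold without either of its libraries (0.34, adjusted p = 0.066 without replicate 1; 0.38, adjusted p = 0.063 without replicate 2). With GC content and length corrected for, the NEO1 values were 0.26 (adjusted p = 0.00091) with ICG-001, 0.02 (adjusted p = 0.71) with CWP232228 and 0.30 (adjusted p = 0.00043) with YB-0158. NEO1 transcripts have a GC content of 48.3%, and over all 16449 genes the log2 fold change ran against GC content (Spearman rho -0.429 with ICG-001, -0.583 with CWP232228 and -0.384 with YB-0158, across genes, which are not replicates). The authors' deposited tables give 0.48 with ICG-001, 0.20 (adjusted p = 0.14) with CWP232228 and 0.52 with YB-0158.

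Most NEO1 reads were assigned to transcripts that lack the 33-base exon printed above. The transcripts with it held 14.7% and 14.5% of the reads of the 5 transcripts that can be divided this way with ICG-001, 11.9% and 16.4% with CWP232228 and 7.39% and 7.58% with YB-0158, against 6.49% and 10.8% with DMSO. The ICG-001 and CWP232228 libraries lay above both DMSO libraries, and those of YB-0158 lay between them. With 2 libraries a group and shares set by the assignment model, no test was made. NEO1-206 and NEO1-208 held 28.2% to 42.9% and 43.7% to 56.0% of the gene's reads.

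**Figure D4:**
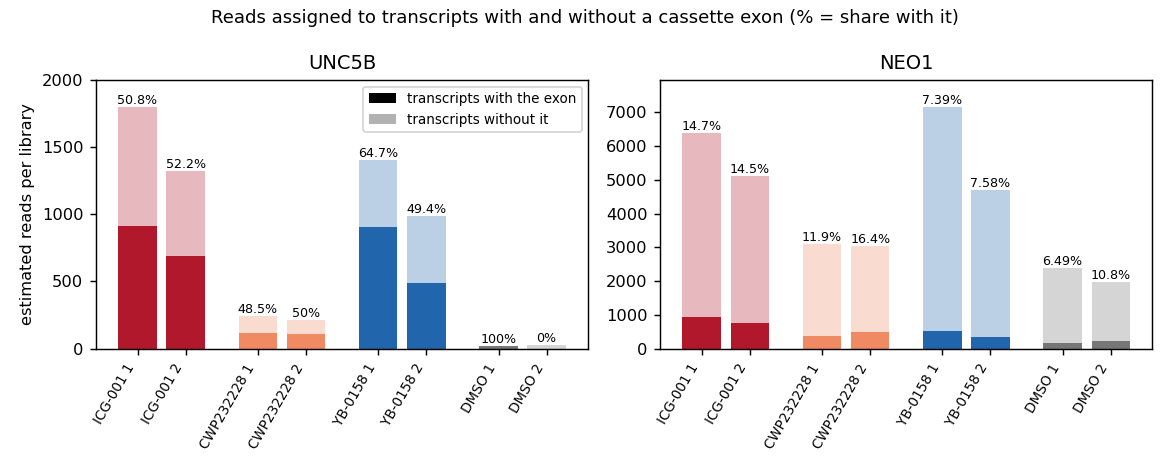
Estimated reads per library (vertical axes, linear) assigned to transcripts with (dark) and without (pale) the 33-base exon of UNC5B and of NEO1, with the percent on transcripts with it above each bar. UNC5B lies near 50% in 5 of the 6 treated libraries, NEO1 at or below 16.4% in all 8, and the DMSO bars of UNC5B hold only 18 and 26 reads.

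NTN4 (ENSG00000074527; chromosome 12, 95657807 to 95791152, minus strand) encodes netrin-4, a basement membrane netrin that binds laminin. It had 71.3 and 69.2 CPM with ICG-001, 45.0 and 43.0 with CWP232228 and 69.9 and 73.1 with YB-0158, against 31.0 and 25.8 with DMSO. In TPM it averaged 28.0 ± 5.34 with ICG-001, 18.9 ± 2.24 with CWP232228, 28.6 ± 1.95 with YB-0158 and 10.9 ± 3.1 with DMSO (SD, n = 2 each). ICG-001 and YB-0158 overlapped, CWP232228 lay below them and above DMSO. NTN4 rose with ICG-001 by a log2 fold change of 1.31 (SE 0.10, edgeR adjusted p = 3.9e-05), with CWP232228 by 0.63 (SE 0.10, adjusted p = 0.0023) and with YB-0158 by 1.33 (SE 0.10, adjusted p = 4.2e-05). Corrected for GC content and length, it still passed at 1.05, 0.36 and 1.10.

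NEO1 and NTN4 were thus the called members among the 3 tested beside UNC5B, 2 of 3 with each compound and each time higher. Over all 16449 genes, 48.8% were called with ICG-001 (24.8% higher and 24.0% lower), 42.8% with CWP232228 (21.6% higher and 21.2% lower) and 43.8% with YB-0158 (21.7% higher and 22.1% lower). With so many genes called and 3 members tested, the count says little about the set. The ratio of NEO1 to NTN4 TPM was 0.84 and 1.02 with ICG-001, 1.07 and 1.23 with CWP232228 and 0.992 and 0.858 with YB-0158, against 1.50 and 1.70 with DMSO.

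NTN4 has a pair of starts with a promoter in the table, and both promoters are shown because most of the gene's reads can be divided between them. NTN4-201 and NTN4-202 begin at the downstream start and held 93.0% and 98.3% of the gene's reads with ICG-001, 96.0% and 87.4% with CWP232228 and 86.3% and 90.5% with YB-0158, against 93.9% and 96.9% with DMSO. NTN4-203, from the upstream start, held 2.43% and 0% with ICG-001, 0% and 8.59% with CWP232228 and 10.6% and 6.24% with YB-0158, against 0% and 0% with DMSO. The other 3 transcripts with annotated starts further into the gene held 1.7% to 6.1% per library. The downstream start held most reads in all 8 libraries, and the upstream transcript was looked at after its values were seen. Each RefSeq sequence (GRCh38.p14, minus strand) runs 5′ to 3′ from 250 bases before the start to 50 bases after it, at chr12:95791106-95791405 for the upstream and chr12:95790715-95791014 for the downstream promoter. Capitals mark matches to the searched motifs.
NTN4 upstream promoter: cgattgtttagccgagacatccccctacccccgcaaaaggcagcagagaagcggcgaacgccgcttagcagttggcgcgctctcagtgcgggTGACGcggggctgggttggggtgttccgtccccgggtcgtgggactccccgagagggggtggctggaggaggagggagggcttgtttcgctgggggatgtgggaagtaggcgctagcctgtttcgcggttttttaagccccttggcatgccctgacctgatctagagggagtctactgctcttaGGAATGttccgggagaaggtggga
NTN4 downstream promoter: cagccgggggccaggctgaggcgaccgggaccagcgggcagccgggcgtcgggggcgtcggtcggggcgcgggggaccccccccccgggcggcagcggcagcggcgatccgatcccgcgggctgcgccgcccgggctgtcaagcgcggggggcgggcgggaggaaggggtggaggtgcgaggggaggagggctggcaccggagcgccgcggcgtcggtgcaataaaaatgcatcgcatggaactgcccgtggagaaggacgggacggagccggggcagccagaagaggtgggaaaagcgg

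Motifs were searched on both strands: CTTTGAT, a core bound by TCF/LEF factors, TGATGNAA, a C/EBP-ATF composite core, TGACG, a core of the CRE, and GGAATG, a core bound by TEAD factors. The upstream promoter holds TGACG before the start and GGAATG after it, and the downstream promoter holds none of the 4. Over 35114 promoters of this length, 2.62% hold CTTTGAT, 3.62% TGATGNAA, 24.6% TGACG and 14.0% GGAATG. The GC content is 62.3% in the upstream and 76.7% in the downstream window. The promoter table held 6 entries for 5 of the 7 genes; those of NEO1, UNC5A and DCC hold none of the 4 motifs and that of UNC5C holds TGACG once. A match describes letters in a window and says nothing of binding.

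NTN1 (chromosome 17, 9021542 to 9244000, plus strand) encodes netrin-1, the founding ligand of DCC and the UNC5 receptors. It had 6 and 3 reads with ICG-001, 1 and 2 with CWP232228 and 6 and 2 with YB-0158, against 10 and 3 with DMSO. It did not pass the low-count filter and was not tested. The depth-scaled ratio to DMSO was 0.408 with ICG-001, 0.214 with CWP232228 and 0.364 with YB-0158, with 95% counting intervals of 0.154 to 1.03, 0.0392 to 0.78 and 0.131 to 0.947. These ratios rest on 13 DMSO reads, 10 of them in 1 library. NTN5, another secreted netrin, had 15 and 12 reads with ICG-001, 8.01 and 7 with CWP232228 and 8 and 10 with YB-0158, against 2 and 1 with DMSO. Its depth-scaled ratios were 5.30 (95% counting interval 1.63 to 27.3), 4.65 (1.31 to 25.0) and 3.55 (1.04 to 18.8). NTN5 also did not pass the low-count filter and was not tested. These ratios rest on 3 DMSO reads, and the intervals cover counting error only. NTN3 had at most 4 reads in any library. Of NTN1, NTN3, NTN4 and NTN5, NTN4 thus had the most reads in all 8 libraries.

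The other ligands, receptors and extracellular partners of the pathway were read from a list of 25 genes, of which 13 passed the low-count filter. With ICG-001 8 rose and 2 fell, with CWP232228 6 rose and 0 fell, and with YB-0158 9 rose and 1 fell; the shares over all genes were 24.8% higher and 24.0% lower with ICG-001, 21.6% and 21.2% with CWP232228 and 21.7% and 22.1% with YB-0158. The median log2 fold changes were 0.54, 0.55 and 0.45, against 0.03, 0.04 and 0.02 over all genes tested. FLRT1, a leucine-rich transmembrane protein of the family that binds UNC5 receptors, stood out by size. It had 3.17 and 3.19 CPM with ICG-001, 2.69 and 2.02 with CWP232228 and 3.46 and 3.40 with YB-0158, against 0.174 and 0.141 with DMSO. With 9 DMSO reads in all, FLRT1 passed the low-count filter through the compound groups only, so its values are given without a test, and it is 1 of the genes counted as higher above. The depth-scaled ratios to DMSO were 20.2 (95% counting interval 10.5 to 44.5) with ICG-001, 15 (7.67 to 33.4) with CWP232228 and 21.8 (11.3 to 48.1) with YB-0158.

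FLRT1 lies within MACROD1 on the opposite strand, and reads of an overlap cannot be told apart by strand. MACROD1 had log2 fold changes of -0.90, -0.84 and -0.86. Under the GC and length correction they were -0.29, -0.24 and -0.34, and of these only the YB-0158 value passed. ENSG00000256824, which overlaps FLRT1 on the same strand, had 16.1 and 13.9 reads with ICG-001, 1.25 and 0 with CWP232228 and 11.2 and 10.1 with YB-0158, against 0 and 0 with DMSO. The part of either gene in the FLRT1 values was not tested. FLRT3, a relative of FLRT1 known to bind UNC5B, rose by 1.26, 0.79 and 1.29 and had 18.7 and 19.5 CPM with ICG-001, 14.1 and 13.4 with CWP232228 and 18.7 and 20.3 with YB-0158, against 8.69 and 7.21 with DMSO. Corrected for GC content and length, FLRT3 no longer passed with CWP232228 (0.18, adjusted p = 0.18). It too lies within another gene on the opposite strand, MACROD2, which did not pass the test.

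Among neogenin's other ligands RGMB, a repulsive guidance molecule, rose by 0.71, 0.55 and 0.58. CDON, a co-receptor that also binds hedgehog ligands, rose by 0.96, 0.71 and 0.90, though with CWP232228 it did not pass once corrected for GC content and length (0.28, adjusted p = 0.084) or without CWP232228 replicate 1 (0.62, adjusted p = 0.07). With effective transcript lengths as an offset CDON passed with no compound (0.99, 0.91 and 0.76). Of the integrin subunits that form receptors for netrins, ITGB1 rose by 0.94, 0.71 and 0.92, ITGA6 by 0.89, 0.79 (0.78 and not passing without CWP232228 replicate 2) and 0.89, and ITGA3 by 0.54 with ICG-001 and 0.45 with YB-0158, with 0.07 for CWP232228. ITGB4 rose by 0.30 with ICG-001 and 0.31 with YB-0158 and had -0.10 with CWP232228. Under the GC and length correction ITGB1 and ITGA6 with CWP232228 still passed but were smaller, at 0.19 and 0.29, and ITGA3 with CWP232228 then passed at 0.18. GPC3, a cell surface glypican, fell by 1.94 with ICG-001 and by 1.66 with YB-0158 and had -0.55 with CWP232228. The differences between compounds were not tested. The count that fell with ICG-001 was 1 without DMSO replicate 2 and without either ICG-001 library, and the count that fell with CWP232228 was 1 without DMSO replicate 1.

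**Figure D5:**
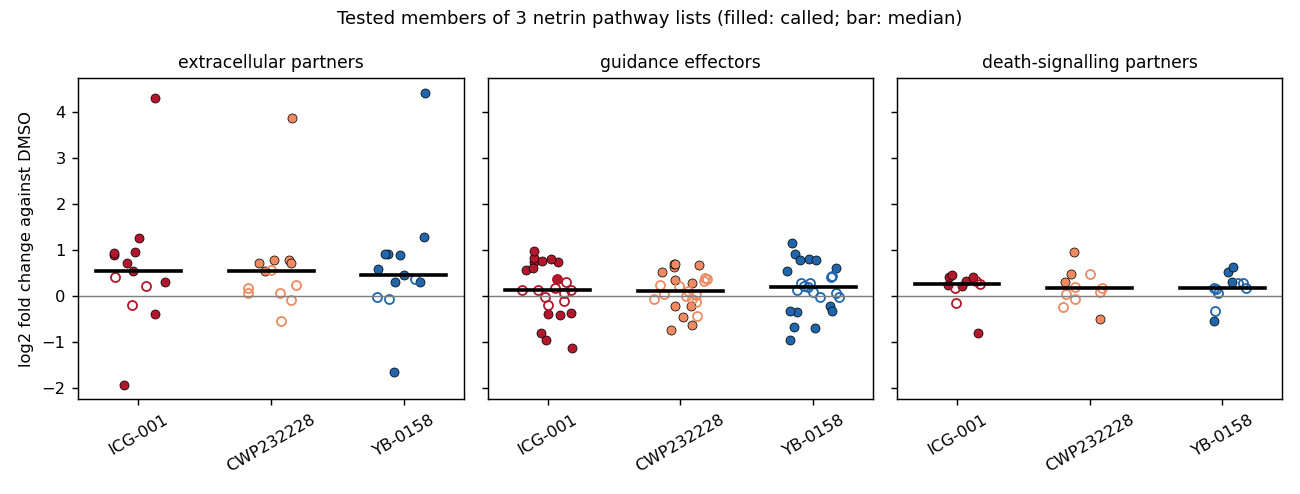
Log2 fold change against DMSO (vertical axis) of each tested gene in 3 lists of netrin pathway genes, for ICG-001, CWP232228 and YB-0158; filled points passed the test, open points did not, and bars are medians. The single points above 3 in the left panel are FLRT1, which is drawn filled although its values are given without a test. The medians of the other panels lie between 0.10 and 0.26.

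Intracellular effectors that link netrin receptors to the cytoskeleton moved in both directions. Of 27 listed genes 25 were tested, and 9 rose and 6 fell with ICG-001, 7 rose and 5 fell with CWP232228 and 7 rose and 7 fell with YB-0158. In all, 15, 12 and 14 of the 25 were called, against 48.8%, 42.8% and 43.8% of all genes. Their medians were 0.13, 0.10 and 0.19. MYO10, a myosin that moves along filopodia and binds DCC and neogenin, rose by 0.97, 0.70 and 1.15, with 286 and 290 CPM with ICG-001, 241 and 237 with CWP232228 and 333 and 318 with YB-0158, against 162 and 132 for DMSO. NCK1, an adaptor, rose by 0.74, 0.62 and 0.60, and TRIO, an exchange factor for RAC1, by 0.83, 0.70 and 0.92. TRIO passed in no comparison when effective transcript lengths were used as an offset (0.28, 0.19 and 0.51). FYN, a kinase of DCC, rose by 0.73 with ICG-001 and 0.80 with YB-0158 and had 0.23 with CWP232228. The CWP232228 value did not pass, but did under the GC and length correction (0.21). With the same offset FYN did not pass with ICG-001 (0.26) or YB-0158 (0.49).

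VASP, which promotes actin filament growth, fell by 0.82, 0.64 and 0.68, with 216 and 214 CPM with ICG-001, 252 and 235 with CWP232228 and 237 and 238 with YB-0158, against 366 and 394 for DMSO. MAPK3, the kinase ERK1, fell by 0.97, 0.74 and 0.97, and RAC1, the small GTPase, by 0.40, 0.23 and 0.35. With CWP232228 the MAPK3 call was lost with effective transcript lengths as an offset (-0.48, adjusted p = 0.09), and the RAC1 call without CWP232228 replicate 1 (-0.19) or 2 (-0.26). The balance of this list depended on the correction for GC content and length, with which 9 rose and 10 fell for ICG-001 and 4 rose and 9 fell for CWP232228. Over all genes that correction gave 1743 higher and 3508 lower for CWP232228, in place of 3555 and 3487. Leaving out a library moved the CWP232228 counts to 11 that rose (without DMSO replicate 1), 3 (without either CWP232228 library) and 2 that fell (without CWP232228 replicate 2), and those of YB-0158 to 13 that rose (without DMSO replicate 1) and 4 and 3 that fell (without YB-0158 replicates 1 and 2).

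Of 12 listed genes that act with UNC5 and DCC receptors in cell death, 11 were tested. With ICG-001 6 rose and 1 fell, and with CWP232228 and with YB-0158 3 rose and 1 fell, with medians of 0.26, 0.18 and 0.16. That is 7, 4 and 4 of 11 called, against 48.8%, 42.8% and 43.8% of all genes. DAPK1, the kinase bound by the UNC5B death domain, had 114 and 116 CPM with ICG-001 and 125 and 123 with YB-0158, against 90.7 and 83.6 with DMSO. It rose by 0.40 with ICG-001 (edgeR adjusted p = 0.0025) and by 0.51 with YB-0158 (adjusted p = 0.00093), and its 0.18 with CWP232228 did not pass (adjusted p = 0.078). Under the GC and length correction the ICG-001 call was lost (0.10, adjusted p = 0.10), as it was with effective transcript lengths as an offset (0.34, adjusted p = 0.084).

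MAGED1, an adaptor reported to bind UNC5A, was the 1 gene of this list that fell, by 0.82, 0.51 and 0.55. It had 121 and 116 CPM with ICG-001, 150 and 144 with CWP232228 and 143 and 142 with YB-0158, against 202 and 216 with DMSO. With effective transcript lengths as an offset MAGED1 passed with ICG-001 (-0.39) and not with CWP232228 (-0.11) or YB-0158 (-0.26). Of the phosphatase PP2A genes, PPP2R1B, a scaffold subunit, rose with CWP232228 (0.47, adjusted p = 0.015) and CIP2A, which inhibits PP2A, rose with CWP232228 by 0.96 and with ICG-001 by 0.40. Under the GC and length correction PPP2R1B no longer passed with CWP232228 (0.05), nor CIP2A with ICG-001 (0.05). PPP2R1B was also not called without CWP232228 replicate 1 (0.50) or 2 (0.45), nor CIP2A with ICG-001 without DMSO replicate 2 (0.20) or without ICG-001 replicate 1 (0.48) or 2 (0.33), and with effective transcript lengths as an offset neither passed with CWP232228 (0.37 and 0.82). FHL2 rose by 0.45 with ICG-001 and 0.63 with YB-0158. Under the GC and length correction 3 rose and 3 fell with ICG-001, 1 rose and 3 fell with CWP232228 and 3 rose and 2 fell with YB-0158. The number that rose was 2 for ICG-001 without either of its libraries and 3 without DMSO replicate 2, 1 for CWP232228 without either of its libraries and 6 without DMSO replicate 1, and 6 for YB-0158 without DMSO replicate 1, while the number that fell was 2 without DMSO replicate 2 for ICG-001 and for YB-0158.

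The libraries held 29071547 to 58489118 estimated reads, and depth differed by group. It was 55020460 and 43395915 with ICG-001, 31022125 and 30618896 with CWP232228 and 58489118 and 39964987 with YB-0158, against 29071547 and 29779369 with DMSO. Raw reads of a gene therefore do not compare between groups until scaled to library size. The 12 markers of colorectal epithelium summed to 9930 to 10400 TPM with ICG-001, 9800 to 9890 with CWP232228 and 10900 to 11000 with YB-0158, against 11800 to 12100 with DMSO. The 6 fibroblast markers summed to 2.13 to 3.82 TPM over all libraries, with COL1A2, COL3A1 and PDGFRA at no more than 3 reads. COL1A1, DCN and LUM exceeded 3 reads in some library, and 2 of the 6 passed the low-count filter. Of the leukocyte markers PTPRC, CD3E and TYROBP had at most 3 reads, and nearly all of that list's level came from LYZ, which intestinal epithelial cells also express. Over 16449 genes the SD of log2 differences between the replicates was 0.477 with ICG-001, 0.489 with CWP232228 and 0.46 with YB-0158, against 0.602 with DMSO.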

How the data were processed

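RNA-seq of 8 HT29 libraries was analysed, made with a TruSeq RNA v2 kit per the labels' protocols. Per the submitters' processing notes, the tools were Salmon 1.3.0, fastp and DESeq2, with GRCh38 as build. Per the file headers, the authors' deposited library files give estimated counts and TPM per transcript, with effective lengths. The authors' deposited comparison tables give a mean signal (normalized counts), a log2 fold change, p-values and FPKM per gene. Their transcript release is not given in the sources used here.

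Transcript identifiers, stripped of versions, were looked up in GENCODE 29 (found: 204677 of 228754; reads of the others were 1.54% to 1.85% of a library), summed per gene and rounded. edgeR 4.0.16 (R 4.3.3) was run on all 8 libraries in 4 groups with TMM, filterByExpr and the robust quasi-likelihood test, which left 4 residual degrees of freedom, and genes were called at a Benjamini-Hochberg adjusted p under 0.05 over 16449 genes. Log2 CPM for profiles used a prior count of 2. The alternatives were DESeq2 1.42.0, its size factors, no filter, only the groups compared, an effective length offset, a GC and length correction (limma 3.58.1), a replicate block and leaving out each library. The edgeR, DESeq2 and GC and length fits were tried on simulated counts with few changed genes and no trend with GC content. The other alternatives were not simulated. How the correction handles a trend with GC content was not tested by the simulation. Same-numbered libraries were not taken as pairs, since the labels do not say that a number marks a shared culture or day. Genes named from each list were the 3 called members with the smallest p per compound. GPC3, ITGA6, ITGB4, CDON, NCK1, TRIO, RAC1, NRP2, NTN3, NTN5 and UNC5D were named in addition after their values were seen. Members and lists were chosen with earlier results of these data known. Lists cover extracellular partners, effectors, death-signalling partners, other dependence receptors, other axon guidance genes and cell type markers. Adjusted p-values are edgeR's, and those under the GC and length correction limma's.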

Additional observations from a re-analysis of the deposited data

How the results depend on the processing

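UNC5B kept its direction under all alternatives, with log2 fold changes of 5.13 to 5.66 (ICG-001), 3.03 to 3.56 (CWP232228) and 4.76 to 5.29 (YB-0158), the extremes of each coming from leaving out a DMSO library; its DMSO level rests on 44 reads. With a replicate block the values were 5.37, 3.27 and 5.0, 2 members were called with each compound, and 7478, 6313 and 6645 genes were called. The pairing of same-numbered libraries with DMSO was weak (correlations of replicate differences of -0.059, -0.081 and -0.011). Between compounds these correlations were 0.032 to 0.184, the highest for ICG-001 with YB-0158. The numbers are not known to mark shared cultures. For CWP232228 the genes called were 4144 with only the 2 groups compared and 3370 with effective length offsets, and the members called were 1 in both, NEO1 being lost (0.34, edgeR adjusted p = 0.063; 0.24, adjusted p = 0.11). Leaving out 1 library gave 5140 to 9412 genes called for ICG-001, 2747 to 8798 for CWP232228 and 4237 to 8846 for YB-0158, and 1 to 3 members for CWP232228; these fits assume that the lone library varies like the other groups. The third member without DMSO replicate 2 was NTN1, which then passed the filter through the 10 reads of the remaining DMSO library, so that this call is no support for a difference; without the filter it did not pass (-2.13, edgeR adjusted p = 0.13). Of the other log2 fold changes of members, 98 kept their side of the threshold, 4 gained a call (UNC5A after GC and length correction) and 6 lost one (NEO1 with CWP232228). Of list counts, 89 of 360 moved by over 1.5 times. No tested member's log2 fold change changed sign, but under the GC and length correction the balance of higher and lower calls turned for effectors (ICG-001, CWP232228), death-signalling partners (CWP232228) and other dependence receptors (ICG-001). Depth limits NTN1, DCC and UNC5C.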

Other observations

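Of 16 other dependence receptors 11 were tested, and 4 rose and 2 fell with each compound, so that 6 of 11 were called, against 48.8%, 42.8% and 43.8% of all genes (medians -0.08, 0.29 and 0.13). The lists overlap: CDON, which is among those that rose, was already counted with the extracellular partners. EPHA4, which was not called, is also among the axon guidance genes below. MET, the receptor of hepatocyte growth factor, had 602 and 649 CPM with ICG-001, 540 and 520 with CWP232228 and 608 and 644 with YB-0158, against 344 and 252 with DMSO, and rose by 1.07, 0.83 and 1.07. Under the GC and length correction MET still passed but was smaller, at 0.55, 0.24 and 0.65. KREMEN1, a receptor of Dickkopf proteins, had 21.7 and 24.0 CPM with ICG-001, 33.0 and 33.4 with CWP232228 and 25.0 and 23.2 with YB-0158, against 47.9 and 43.2 with DMSO, and fell by 0.99, 0.46 and 0.91. With effective length offsets KREMEN1 did not pass with CWP232228 (-0.12) or YB-0158 (-0.63), nor with CWP232228 without its replicate 2 (-0.46). With correction for GC content and length 3 rose and 4 fell with ICG-001 and 2 rose and 2 fell with CWP232228. For CWP232228, 1 rose and 1 fell without its replicate 1, and 2 rose and 0 fell without its replicate 2, while 1 fell without replicate 2 of ICG-001 or of YB-0158.

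Of 46 other axon guidance genes 38 were tested. With ICG-001 11 rose and 12 fell, with CWP232228 8 rose and 9 fell and with YB-0158 11 rose and 11 fell, with medians of -0.12, -0.10 and -0.08. In all, 23, 17 and 22 of the 38 were called, against 48.8%, 42.8% and 43.8% of all genes. NRP1, a semaphorin co-receptor, had 55.5 and 54.0 CPM with ICG-001, 33.0 and 31.8 with CWP232228 and 47.7 and 49.6 with YB-0158, against 18.8 and 15.4 with DMSO, and rose by 1.68, 0.92 and 1.51. SLIT1, a ligand of ROBO receptors, had 1.96 and 1.91 CPM with ICG-001, against 0.0348 and 0.212 with DMSO. SLIT1 passed the low-count filter through compound groups only, so no test is given. Its log2 fold change of 3.95 was 3.18 without DMSO replicate 1 and 5.67 without DMSO replicate 2. With CWP232228 SLIT1 had 1.76 and with YB-0158 4.28. It is among the genes counted as higher above with each compound. So is NRP2 with ICG-001 (0.566 CPM) and YB-0158 (0.827 CPM), which had 0.0521 CPM with DMSO and likewise passed the filter through compound groups only. Semaphorins moved in both directions. SEMA4A fell by 0.94, 0.39 and 0.91 with ICG-001, CWP232228 and YB-0158. With effective length offsets it did not pass with CWP232228 (-0.38). SEMA3B rose by 0.66 with ICG-001 and 0.79 with YB-0158, with 0.16 for CWP232228 (0.58 under the GC and length correction). SEMA3A rose by 0.49, 0.87 and 0.66, and passed with no compound with effective length offsets (0.63, 0.76 and 0.65). Under the GC and length correction SEMA3A had 0.02 with ICG-001. EFNA1, an ephrin, fell by 0.80, 0.73 and 0.68. The numbers that fell were 6 without ICG-001 replicate 2, 1 without CWP232228 replicate 2, and 7, 4 and 4 for YB-0158 without DMSO replicate 2 and without YB-0158 replicates 1 and 2, and 3 and 4 rose with CWP232228 without its replicates 1 and 2. With effective length offsets 7 rose and 4 fell with ICG-001, 7 rose and 2 fell with CWP232228 and 7 rose and 3 fell with YB-0158.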
